A study of Mus musculus with 18 samples.

Results

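The genes described here are 10 genes of autophagy and the lysosome, *Ulk1*, *Becn1*, *Atg5*, *Atg7*, *Map1lc3b*, *Gabarapl1*, *Sqstm1*, *Fyco1*, *Lamp1* and *Tfeb*, chosen by symbol from the 40800 Ensembl identifiers of a read count table of mouse lens RNA. RNA-seq was carried out on 18 libraries of pooled whole lenses from C57BL/6J mice, with 3 libraries in each of 6 groups. Lenses of 2-day-old mice were WT, heterozygous (*Cryaa*-R49C-het) or homozygous (*Cryaa*-R49C-homo) for a knock-in point mutation of αA-crystallin, and lenses of 14-day-old mice were WT, heterozygous (*Cryab*-R120G-het) or homozygous (*Cryab*-R120G-homo) for a knock-in point mutation of αB-crystallin. Both mutations cause cataract, and the libraries were made to compare mutant with WT lenses of the same age. The line and the age change together and cannot be told apart. In 6 libraries of the *Cryab* line the genotype field names the other line, and their groups were taken from the sample titles. A knock-in point mutation leaves the gene in place, so the level of the crystallin transcript does not check the genotype labels.

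Autophagy encloses cytoplasm and organelles in a double membrane that fuses with the lysosome, where the content is degraded. ULK1 starts the process, Beclin 1 (*Becn1*) belongs to the lipid kinase complex that marks the new membrane, and ATG7 and ATG5 attach LC3 and GABARAP proteins to lipid so that they coat it. The receptor p62 (*Sqstm1*) binds ubiquitinated protein and LC3, FYCO1 links the vesicles to kinesin motors, LAMP1 is a glycoprotein of the lysosomal membrane, and TFEB is a transcription factor of lysosomal genes. Lens fibre cells remove their organelles as they mature, and loss of *Fyco1* causes cataract in humans.

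Library totals ran from 14272174 to 29639719 counts, and all 10 genes passed the filter on low counts, with 10 to 6393 counts in any library. Library 1 of *Cryaa*-R49C-homo stood apart from the other 2 of its group. The noncoding RNA Gm42418 took 2.53% of its counts and 24.5% and 42.6% of theirs, and the 16 crystallin genes counted took 61.2% of its counts and 37.7% and 23.8% of theirs. Of 13 fibre markers, 12 had at least 347 counts in every library, *Lim2* was listed at 0 in all 18, and the summed level was between 79382 and 728294 CPM (counts per 1e6 of a library's total after TMM scaling, which evens out libraries dominated by a few transcripts). In pooled whole lenses, fewer cells of a type and less RNA per cell cannot be told apart.

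Promoter sequences show what lies before the start sites of the gene that moved most and of the genes that hold a motif of the lysosomal transcription factors. RefSeq windows of GRCm38.p6, from 250 bases before to 50 bases after a start site, were matched for 9 of the 10 genes, in 12 windows, and *Becn1* had none. The letters CACGTG, the E-box core that TFEB and related factors bind, were searched on both strands and occurred 4 times in the *Lamp1* window, starting at bases -61, -45, -28 and -15 from the start site, and 1 time each in the windows of *Atg5* (base -14) and *Atg7* (base -132). Of all 32851 windows of the same length, 7.15% held these letters. The longer form TCACGTGA, which contains CACGTG, was in 0.974% of all windows and in none of those of the 9 genes. TGACNNNGC, the core of the antioxidant response element bound by NRF2, was in 12.4% of all windows and, among the 9 genes, in that of *Map1lc3b* at base 5 after the start. TGATGNAA, part of the composite element bound by ATF4 and CHOP, was in 3.97% of all windows and in none of theirs. A match is a description of the letters, and no match says only that they are not in this window. The only *Atg7* window lies inside the annotated gene, whose first base is chr6:114643097. It does not hold the bases before that first base. The 250 bases before the start sites of *Sqstm1* (chr11:50210821-50211070, minus strand), *Lamp1* (chr8:13158911-13159160, plus strand), *Atg5* (chr10:44268089-44268338, plus strand) and *Atg7* (chr6:114670846-114671095, plus strand) read as follows, 5′ to 3′, with CACGTG in capitals.
Sqstm1: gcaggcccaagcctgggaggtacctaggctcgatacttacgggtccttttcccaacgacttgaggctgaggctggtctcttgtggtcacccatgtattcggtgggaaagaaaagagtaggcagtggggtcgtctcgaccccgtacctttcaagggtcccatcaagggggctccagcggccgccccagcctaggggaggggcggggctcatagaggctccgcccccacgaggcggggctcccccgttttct
Lamp1: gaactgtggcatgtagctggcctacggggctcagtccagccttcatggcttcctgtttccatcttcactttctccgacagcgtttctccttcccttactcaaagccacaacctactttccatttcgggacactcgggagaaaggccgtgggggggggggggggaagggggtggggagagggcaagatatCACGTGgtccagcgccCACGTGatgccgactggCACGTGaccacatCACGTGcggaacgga
Atg5: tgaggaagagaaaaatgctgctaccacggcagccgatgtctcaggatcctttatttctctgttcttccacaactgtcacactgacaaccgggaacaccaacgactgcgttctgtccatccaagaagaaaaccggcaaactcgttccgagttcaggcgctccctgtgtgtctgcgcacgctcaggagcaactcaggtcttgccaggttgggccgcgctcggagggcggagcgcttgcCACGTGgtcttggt
Atg7: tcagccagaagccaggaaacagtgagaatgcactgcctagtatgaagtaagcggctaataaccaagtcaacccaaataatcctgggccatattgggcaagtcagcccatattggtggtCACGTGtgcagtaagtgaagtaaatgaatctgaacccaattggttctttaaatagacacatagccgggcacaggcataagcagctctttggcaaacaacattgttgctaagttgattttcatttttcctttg

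*Gabarapl1* had the highest level per length of the 10 genes in 5 of the 6 groups, and *Sqstm1* in the sixth, *Cryaa*-R49C-homo. As CPM per kb of exon length, *Gabarapl1* stood at 32.9 ± 8.29 (SD, n = 3) in *Cryaa*-WT lenses and at 121 ± 20.9 in *Cryab*-WT lenses. *Lamp1* followed at 13.7 ± 2.75 and 17.0 ± 2.79 CPM per kb. Below it in the *Cryaa*-WT lenses came *Sqstm1* (7.15 ± 1.28), *Map1lc3b* (5.49 ± 0.594) and *Atg5* (4.28 ± 0.421), and their order was the same in the *Cryab*-WT lenses. *Becn1*, *Fyco1* and *Atg7* lay between 0.617 and 2.25 CPM per kb in the WT libraries of both lines, in that order by their means, and *Becn1* and *Fyco1* overlapped in *Cryab*-WT lenses. The lowest were *Ulk1* and *Tfeb*, at 0.570 ± 0.0884 and 0.564 ± 0.0841 CPM per kb in *Cryaa*-WT lenses, and they did not differ beyond their spread. The range of *Sqstm1* also overlapped that of *Map1lc3b* in *Cryaa*-WT lenses and that of *Lamp1* in *Cryab*-WT lenses.

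**Figure D1:**
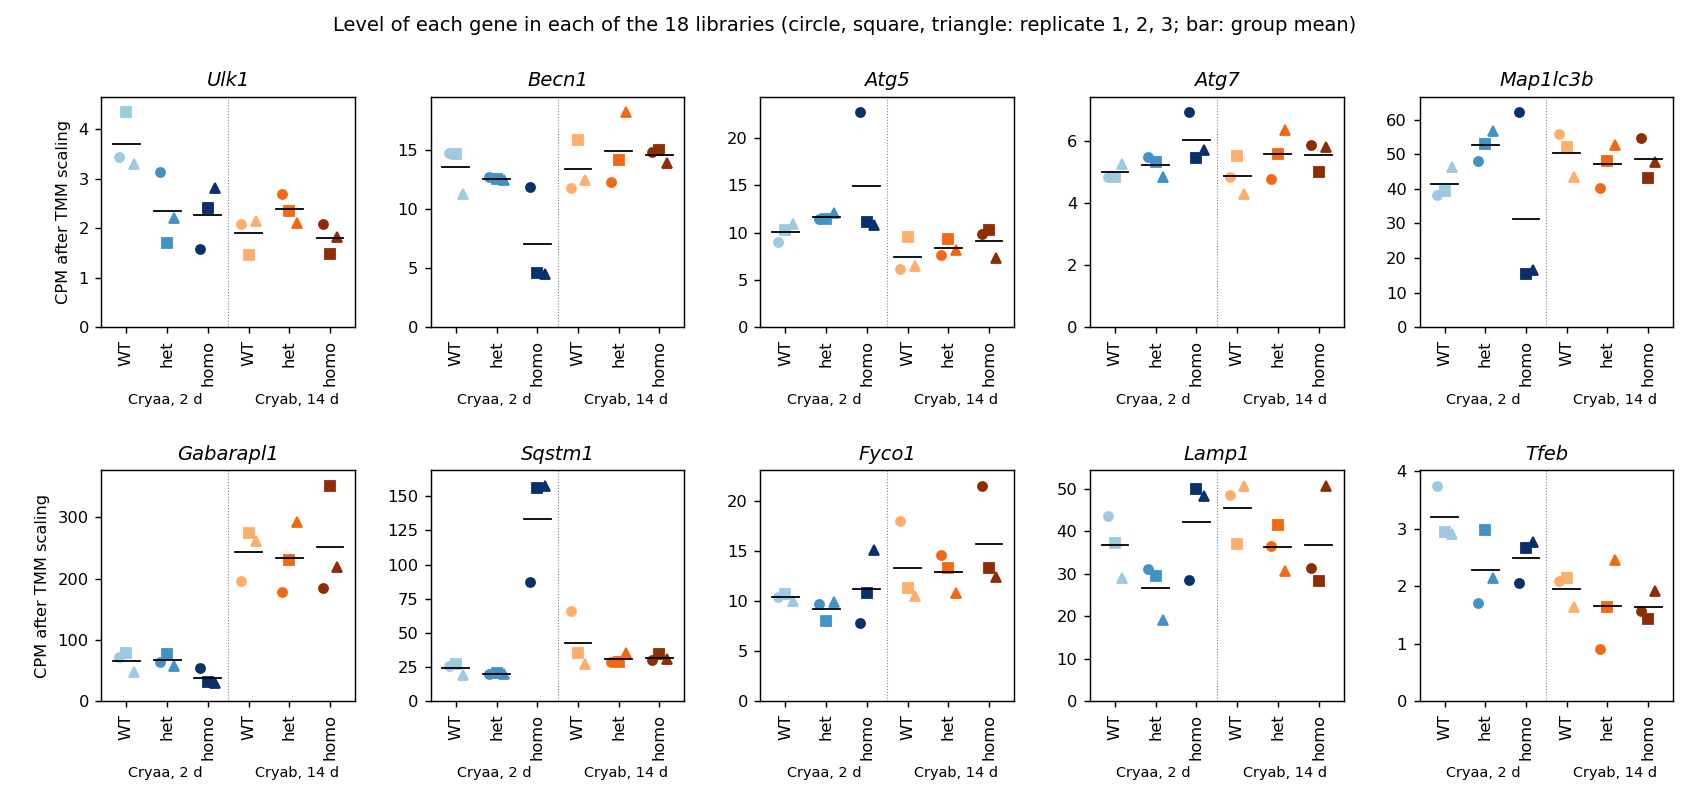
CPM after TMM scaling (y axis, from 0, on its own scale in each panel) of the 10 genes in the 18 libraries by group (x axis), with circles, squares and triangles for replicates 1, 2 and 3 and a bar for the group mean. *Sqstm1* lies between 86.9 and 158 CPM in *Cryaa*-R49C-homo and at most at 66.4 CPM in any other library, and *Cryaa*-R49C-homo replicate 1 (circle) lies far from replicates 2 and 3 for *Map1lc3b*, *Becn1* and *Atg5*.

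In *Cryaa*-R49C-homo lenses at 2 days, the receptor gene *Sqstm1* rose 5.56-fold against WT, *Becn1* of the lipid kinase complex fell 1.92-fold, and the other 8 genes did not pass the threshold. The 3 WT libraries held 25.6, 27.2 and 19.1 CPM of *Sqstm1*, the het libraries 20.3, 20.4 and 20.1 CPM, and the homo libraries 86.9, 156 and 158 CPM. Each homo library was above every other library of both lines, and library 1 was the lowest of the 3. *Sqstm1* (ENSMUSG00000015837, chr11:50199366-50210827, minus strand of GRCm38) differed between homo and WT by a log2 fold change of 2.48 (SE 0.29, 95% interval 1.88 to 3.07, adjusted p = 3.7e-06, edgeR's quasi-likelihood test with Benjamini-Hochberg adjustment over 13938 genes). Against het the log2 fold change was 2.72 (SE 0.29, adjusted p = 1.66e-06). Over the 14 alternative settings for homo against WT, including each library left out, it stayed between 2.34 and 2.90 and past the threshold. Thus 2 of the 10 genes passed the threshold against WT, beside 9.79% of all 13938 genes tested (4.87% rose and 4.92% fell), and 1 of 10 passed it against het, beside 8.32%. The median log2 fold change of the 10 genes against WT was -0.12, beside 0.00 for all genes tested. The homo libraries lay wholly above those of WT for *Sqstm1* and *Atg7* and wholly below for *Ulk1* and *Tfeb*, so 4 of 10 genes did not overlap, beside 24.5% of all genes tested.

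Of the genes that start autophagy, *Ulk1*, the kinase, was at 3.45, 4.35 and 3.29 CPM in WT and at 1.58, 2.42 and 2.81 CPM in homo lenses. Its homo libraries were all below WT, and the log2 difference of -0.71 (SE 0.28, adjusted p = 0.117) did not pass the threshold. *Becn1* was at 14.8, 14.7 and 11.3 CPM in WT, 12.8, 12.5 and 12.5 CPM in het, and 11.9, 4.65 and 4.52 CPM in homo lenses. Homo library 1 lay within the WT range and the other 2 far below it. The log2 fold change of *Becn1* was -0.94 (SE 0.28, adjusted p = 0.0355). In the same data it was -0.43 (adjusted p = 0.423) with library size alone, -0.88 (adjusted p = 0.0963) with the crystallins and Gm42418 left out of the library size, and -0.90 (adjusted p = 0.243) with only the groups compared, and so not past the threshold. The call was also lost without WT library 1 (adjusted p = 0.117), WT library 2 (0.114), homo library 2 (0.166) or homo library 3 (0.148), and without homo library 1 it was -1.57 (adjusted p = 8.11e-06). Of the exon bases of *Becn1*, 43.9% overlap *Cntd1*, which had at most 4 counts in a library, on the opposite strand, and the strand setting of the counting is not stated.

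The enzymes that conjugate LC3 showed no change past the threshold. *Atg5* was at 8.98, 10.3 and 10.9 CPM in WT and at 22.8, 11.2 and 10.8 CPM in homo lenses, so that library 1 stood far above the other 2 homo libraries, which lay near the top of the WT range. The log2 difference of *Atg5* was 0.57 (SE 0.25, adjusted p = 0.162), and without homo library 1 it was 0.13. *Atg7* moved little, with 4.85, 4.86 and 5.29 CPM in WT and 6.95, 5.46 and 5.74 CPM in homo lenses (log2 difference 0.28, SE 0.20, adjusted p = 0.428).

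The LC3 gene *Map1lc3b* and the GABARAP gene *Gabarapl1*, whose products sit on the autophagosome membrane, were lower in 2 of the 3 homo libraries. *Map1lc3b* was at 38.1, 39.4 and 46.4 CPM in WT, 48.1, 52.9 and 56.7 CPM in het, and 62.2, 15.4 and 16.5 CPM in homo lenses. Library 1 was the highest of the 9 libraries of the line and the other 2 homo libraries were the lowest. With all libraries the log2 difference from WT was -0.39 (SE 0.35, adjusted p = 0.548), and without homo library 1 it was -1.38 (SE 0.19, adjusted p = 1.11e-05). The likelihood-ratio test with robust dispersions, on all libraries, gave -1.17 (adjusted p = 9.62e-05), and library size alone gave 0.073. *Gabarapl1* was at 71.9, 79.3 and 47.4 CPM in WT and at 53.9, 31.5 and 29.8 CPM in homo lenses, where library 1 overlapped WT and the other 2 did not. Its log2 difference was -0.78 (SE 0.28, adjusted p = 0.0837), and -1.11 (adjusted p = 0.00522) without library 1. An antisense transcript, 1700101I11Rik, overlaps 28.3% of the exon bases of *Gabarapl1* and had at most 408 counts in a library. Without homo library 1, 4 of the 10 genes passed the threshold against WT (*Sqstm1* rose, and *Becn1*, *Map1lc3b* and *Gabarapl1* fell), beside 22.1% of all genes tested. In that fit, 5 of 10 passed it against het, with *Lamp1* as the fifth at 0.89 (adjusted p = 0.0078), beside 29.4% of all genes tested.

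**Figure D2:**
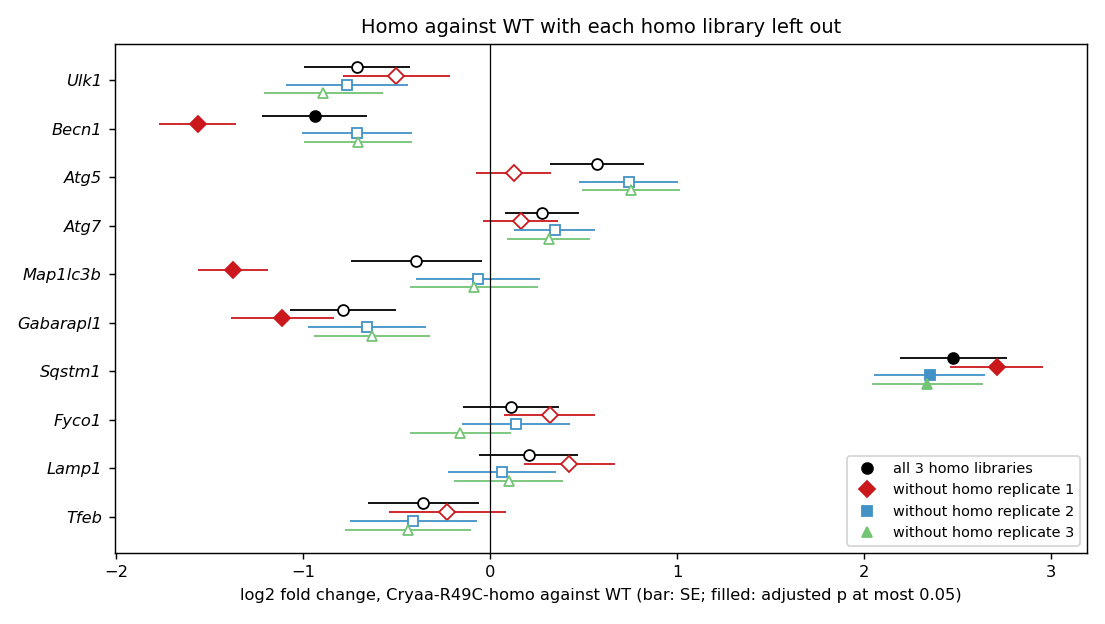
log2 fold change of *Cryaa*-R49C-homo against WT (x axis, bars are SE) for the 10 genes (y axis) with all 3 homo libraries (black circles) and with each homo library left out (coloured symbols), filled where the adjusted p was at most 0.05. *Sqstm1* stays between 2.34 and 2.71, while *Map1lc3b* goes from -0.39 to -1.38 when library 1 is left out.

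*Fyco1*, *Lamp1* and *Tfeb* did not pass the threshold in the homo lenses. *Fyco1*, the kinesin adaptor, was at 10.4, 10.7 and 10.01 CPM in WT and at 7.84, 10.8 and 15.1 CPM in homo lenses, on both sides of the WT libraries (log2 difference 0.11, 95% interval -0.42 to 0.65). *Lamp1* was at 43.7, 37.3 and 29.0 CPM in WT and at 28.6, 50.1 and 48.3 CPM in homo lenses, where library 1 was again apart from the other 2 (0.20, 95% interval -0.34 to 0.75). *Tfeb* was at 3.75, 2.94 and 2.91 CPM in WT and at 2.05, 2.67 and 2.77 CPM in homo lenses (-0.36, 95% interval -0.97 to 0.26). The homo libraries of *Tfeb* were all below WT by a margin that the test did not call.

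In *Cryaa*-R49C-het lenses none of the 10 genes passed the threshold against WT, beside 0.00717% of all genes tested, and by edgeR 1 of them had an unadjusted p under 0.05, as did 708 of all genes. DESeq2 and the likelihood-ratio test also called 0 of the 10. That gene was *Ulk1*, at 3.13, 1.71 and 2.22 CPM in het lenses, all below WT, with a log2 difference of -0.65 (95% interval -1.23 to -0.07, adjusted p = 0.836). *Tfeb* (-0.49, interval -1.10 to 0.12) and *Lamp1* (-0.46, interval -1.01 to 0.08) had the next largest differences. *Sqstm1* differed by -0.24 (interval -0.81 to 0.32), and *Map1lc3b* by 0.35 (interval -0.38 to 1.08). The het libraries lay wholly above WT for *Map1lc3b* and *Atg5* and wholly below for *Ulk1* and *Fyco1*, so 4 of 10 genes did not overlap, beside 21.9% of all genes tested.

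In the *Cryab*-R120G lenses at 14 days none of the 10 genes passed the threshold in any comparison. This held for het against WT, beside 0.00717% of all genes tested, for homo against WT, beside 0.0502%, and for homo against het, beside 0%. By edgeR, 0 of the 10 genes had an unadjusted p under 0.05 in these comparisons, as did 532, 851 and 273 of all genes, and DESeq2 and the likelihood-ratio test also called 0 of the 10. *Sqstm1* was at 66.4, 35.3 and 27.1 CPM in WT, 28.4, 28.7 and 35.4 CPM in het, and 30.2, 34.3 and 31.0 CPM in homo lenses. WT library 1 stood above the other 8 libraries of the line, which lay between 27.1 and 35.4 CPM. The log2 difference of *Sqstm1* was -0.47 (95% interval -1.04 to 0.10) in het and -0.43 (interval -0.996 to 0.14) in homo lenses against WT, and without WT library 1 it was 0.03 in homo lenses. The 10 log2 differences from WT ran from -0.47 (*Sqstm1*) to 0.33 (*Ulk1*) in het and from -0.43 (*Sqstm1*) to 0.30 (*Atg5*) in homo lenses. Between homo and het they ran from -0.40 (*Ulk1*) to 0.29 (*Fyco1*). *Fyco1* was at 18.1, 11.3 and 10.5 CPM in WT and at 21.5, 13.3 and 12.4 CPM in homo lenses, and replicate 1 was the highest in each group of the line. The summed photoreceptor markers were also highest in replicate 1 of each group, at 819 CPM in WT, 624 CPM in het and 1225 CPM in homo, and lay between 22.3 and 625 CPM in the other 6 libraries. Their part in the level of *Fyco1* was not tested. Same-numbered WT and homo libraries of the *Cryab* line correlated at 0.28, 0.18 and 0.16 after group means were removed. The sample titles state no pairing, so it is not known whether these libraries belong together. Taken by number, *Fyco1* and *Atg5* were higher in homo in 3 of 3 pairs, beside 14.9% of all genes tested. *Lamp1* was lower in 3 of 3, beside 12.8%. With the replicate number as a block the log2 difference was 0.24 (SE 0.22, adjusted p = 0.902) for *Fyco1*, 0.32 (SE 0.26, adjusted p = 0.884) for *Atg5* and -0.32 (SE 0.27, adjusted p = 0.887) for *Lamp1* in edgeR's test. The difference of *Fyco1* was -0.043 without homo library 1. *Gabarapl1* ranged from 178 to 352 CPM over the 9 libraries with all groups overlapping.

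**Figure D3:**
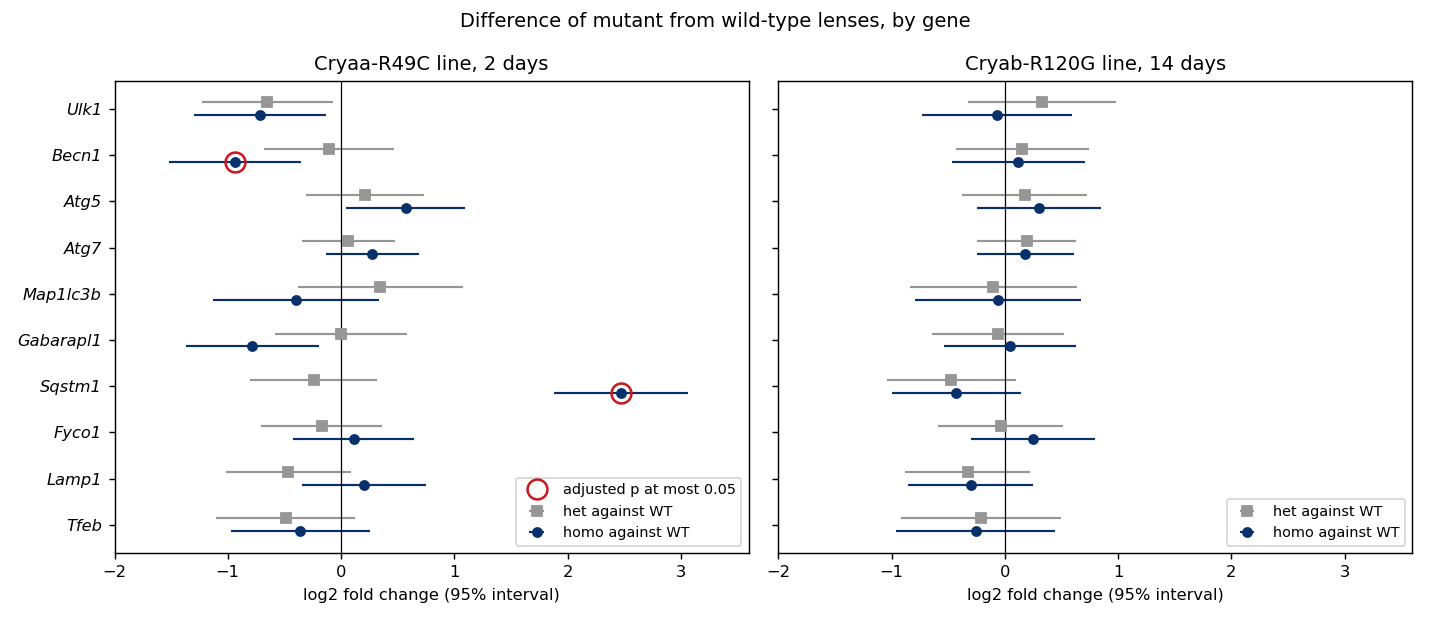
log2 fold change against WT of the same age (x axis, bars are 95% intervals) for the 10 genes (y axis) in het (grey squares) and homo (blue circles) lenses of the *Cryaa*-R49C line (left) and the *Cryab*-R120G line (right). Red rings mark the changes past the threshold, *Sqstm1* at 2.48 and *Becn1* at -0.94, both in *Cryaa*-R49C-homo.

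The homo effect was compared between the lines in the same model. *Sqstm1* differed by 2.90 on the log2 scale (SE 0.39, 95% interval 2.09 to 3.72, adjusted p = 9.15e-05), between log2 fold changes of 2.48 in *Cryaa*-R49C-homo and -0.43 in *Cryab*-R120G-homo. It was 1 of 10 genes past the threshold in this comparison, beside 2.91% of all genes tested. *Becn1* (-1.06, SE 0.40, adjusted p = 0.183) and *Gabarapl1* (-0.83, SE 0.40, adjusted p = 0.319) did not pass it. The difference between the lines is also one between 2 and 14 days of age.

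Between the WT lenses, *Gabarapl1* rose 3.67-fold from the 2-day-old *Cryaa* line to the 14-day-old *Cryab* line, *Sqstm1* rose 1.78-fold and *Ulk1* fell 1.96-fold. *Gabarapl1* was at 71.9, 79.3 and 47.4 CPM at 2 days and at 195, 274 and 261 CPM at 14 days, with no overlap (log2 fold change 1.88, SE 0.29, adjusted p = 8.68e-05). *Ulk1* went from 3.45, 4.35 and 3.29 CPM to 2.09, 1.47 and 2.15 CPM, also without overlap (-0.97, SE 0.30, adjusted p = 0.0238). Its call was lost without *Cryaa*-WT library 2 (adjusted p = 0.0865) or *Cryab*-WT library 2 (0.116). The rise of *Sqstm1* (0.84, SE 0.27, adjusted p = 0.0312) had overlapping groups, and it was not past the threshold without *Cryab*-WT library 1 (0.38, adjusted p = 0.299), *Cryaa*-WT library 1 (adjusted p = 0.06) or *Cryaa*-WT library 3 (0.145). It was also not past it with the likelihood-ratio test (0.59, adjusted p = 0.0554) or with only the groups compared (0.83, adjusted p = 0.0915). *Gabarapl1* lay wholly higher and *Ulk1* and *Tfeb* wholly lower at 14 days, so 3 of 10 genes did not overlap, beside 43.2% of all genes tested. The threshold was passed by 3 of 10 genes, beside 23.2% of all genes tested (11.7% rose and 11.5% fell). The other 7 log2 differences lay between -0.71 (*Tfeb*, adjusted p = 0.111) and 0.35 (*Fyco1*). These directions depend on the scaling. The crystallin genes took 46.3% to 48.99% of the counts in the 2-day and 62.8% to 70.6% in the 14-day WT libraries. With library size alone the median of all genes moved from -0.07 to -1.61, 0 of the 10 genes rose and 9 fell, beside 1.13% and 82% of all genes tested, *Gabarapl1* stood at 0.39 (adjusted p = 0.199) and *Sqstm1* at -0.68. With the crystallins and Gm42418 left out of the library size the median was -0.83, 1 gene rose (*Gabarapl1*, 1.15) and 4 fell, beside 3.09% and 45.8%. *Gabarapl1* was thus above the median of all genes under each of these scalings.

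The wider pathway was described with 11 lists that hold 133 genes of autophagy and the lysosome, 131 of them tested, the 10 genes included. In *Cryaa*-R49C-homo lenses 6 rose and 11 fell against WT, or 13% of the 131 beside 9.79% of all genes, with a median log2 fold change of 0.02. Without WT library 1 the count was 10, beside 5.35% of all genes tested, and without WT library 2 it was 11, beside 5.7%. Without homo library 1 it was 45 (12 rose and 33 fell), beside 22.1%. With library size alone, which moved the median of all genes to 0.41, 22 rose and 2 fell, and all genes split into 1884 rises and 254 falls in place of 679 and 686.

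None of the 37 acid hydrolases and cofactors tested rose and 4 fell, the cathepsin gene *Ctsf* (-1.61), *Galns*, which encodes a sulfatase (-1.41), the carboxypeptidase *Ctsa* (-1.10) and the tripeptidyl peptidase *Tpp1* (-1.01), and the median of the list was -0.19. Of all genes tested, 4.87% rose and 4.92% fell. *Mcoln1*, the calcium channel, fell by 1.11 and was the only 1 of 9 genes of the lysosomal membrane past the threshold. *Vps16*, of the tethering complex for lysosome fusion, fell by 1.03 among 14 transport and fusion genes. Of the transcription factors related to *Tfeb*, *Mitf* fell by 0.99 and *Tfe3* rose by 0.70. In edgeR's test the adjusted p-values of the 7 genes that fell ran from 0.000287 (*Galns*) to 0.00575 (*Mitf*), and that of *Tfe3* was 0.0454.

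Of 5 genes of the initiation list 1 rose, and of 8 genes of the lipid kinase complex 1 fell. Of 9 genes for membrane supply, lipid transfer and phosphoinositide binding 1 rose and 2 fell. *Atg9a*, which supplies membrane, fell by 1.55 (SE 0.28, adjusted p = 0.000669) from 5.42 ± 1.10 to 1.84 ± 0.399 CPM (SD, n = 3), and *Wdr45*, a phosphoinositide-binding protein gene, fell by 0.89, while its relative *Wipi1* rose by 0.72. *Atg101* of the ULK complex rose by 1.03. None of the 10 conjugation enzymes and none of the 5 LC3 and GABARAP genes passed the threshold. Among the 11 cargo receptors *Sqstm1* and the mitophagy receptor *Bnip3* (0.92) rose and *Optn* fell by 0.95. Of the 15 V-ATPase subunits 1 rose, *Atp6v1d* (0.85). These counts stand beside 4.87% of all genes tested that rose and 4.92% that fell. The calls of *Atg9a*, *Wdr45*, *Ctsf*, *Galns*, *Ctsa*, *Tpp1*, *Mcoln1*, *Vps16*, *Mitf* and *Sqstm1* held with each library of the comparison left out in turn. Of these, *Atg9a*, *Galns* and *Sqstm1* also kept their calls under the 8 other settings. Those of *Ctsf*, *Ctsa*, *Vps16*, *Tpp1*, *Mitf* and *Wdr45* were lost with library size alone and with only the groups compared, with adjusted p-values from 0.0536 (*Ctsf*) to 0.232 (*Wdr45*), and that of *Mcoln1* with library size alone (0.0677). Those of *Atg101*, *Bnip3* and *Atp6v1d* were each lost without any 1 WT library or without homo library 1, that of *Tfe3* without any 1 WT library or homo library 3, that of *Wipi1* without WT library 1 or 3, and that of *Optn* without WT library 1 or 2 or homo library 2 or 3, with adjusted p-values of up to 0.269. Without homo library 1 the log2 fold change went from 0.92 to 0.36 for *Bnip3*, from 1.03 to 0.42 for *Atg101* and from 0.85 to 0.44 for *Atp6v1d*. Of the 8 other settings, the calls of *Bnip3* and *Tfe3* were lost in 4 and those of *Atg101*, *Atp6v1d*, *Wipi1* and *Optn* in 2, with adjusted p-values of up to 0.291 (*Optn*).

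**Figure D4:**
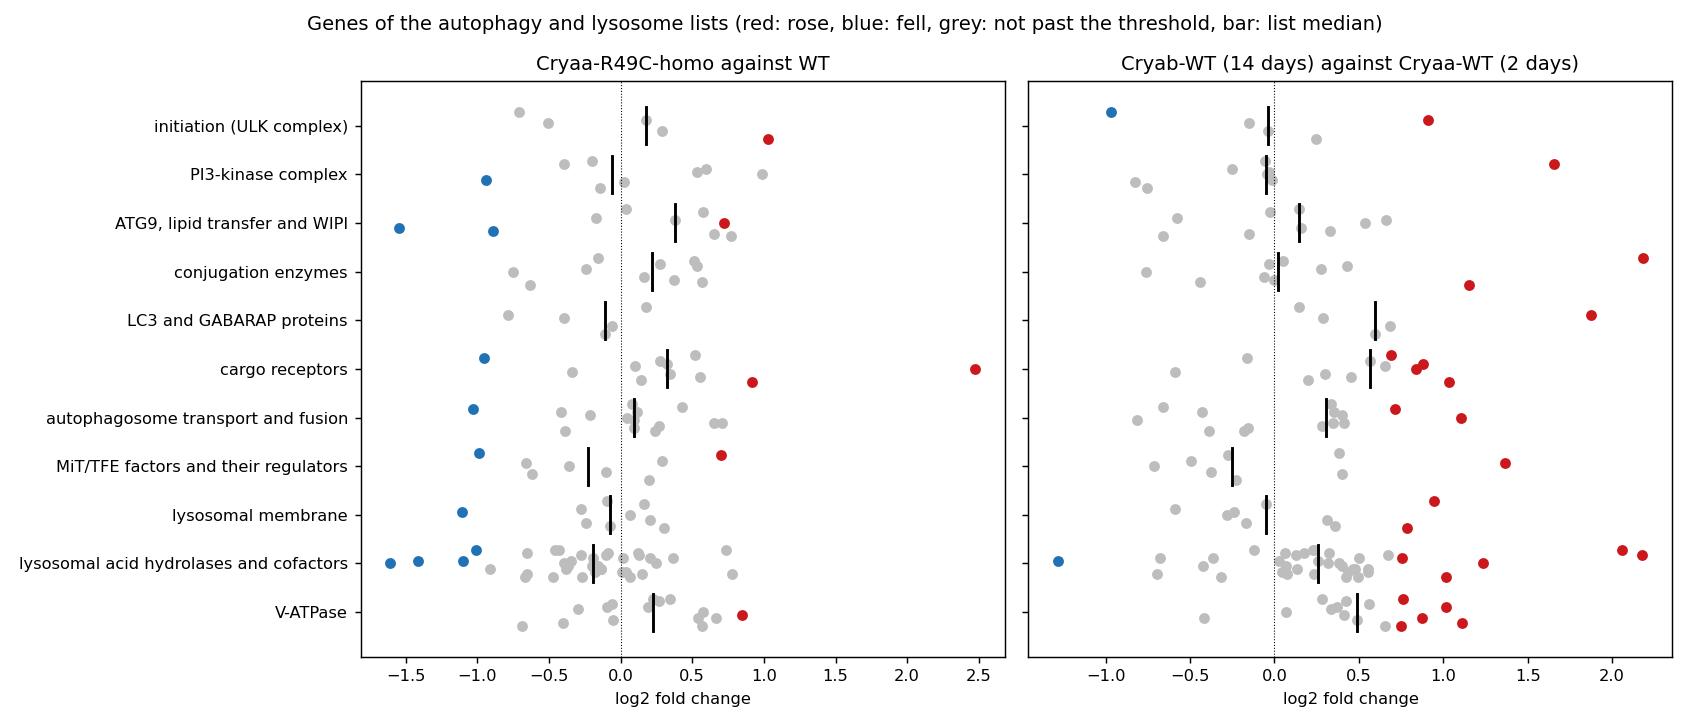
log2 fold change (x axis) of the genes of 11 autophagy and lysosome lists (y axis) in *Cryaa*-R49C-homo against WT (left) and in *Cryab*-WT against *Cryaa*-WT (right), with 1 point per gene, red for a rise and blue for a fall past the threshold, and a bar for the list median. On the left *Sqstm1* stands alone at 2.48 among the cargo receptors, and on the right 24 points are red and 2 are blue.

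Against het, 8 of the 131 genes rose and 10 fell in *Cryaa*-R49C-homo lenses, or 13.7% beside 8.32% of all genes tested (4.69% rose and 3.63% fell). The count was 4 without het library 2, beside 4.23% of all genes, and 4 without homo library 2, beside 3.3%. It was 59 without homo library 1, beside 29.4%. None of the 131 passed the threshold against WT in the het lenses of either line, beside 0.00717% of all genes in each, or in *Cryab*-R120G-homo lenses, beside 0.0502%. Between the WT lenses 24 rose and 2 fell, or 19.8% beside 23.2% of all genes, with a median of 0.28 beside -0.07. The largest were *Atg3*, the enzyme that transfers LC3 to lipid (2.18), the lysosomal proteases *Ctsl* (2.18) and *Lgmn* (2.06), *Gabarapl1*, *Rubcn*, a regulator of the lipid kinase complex (1.66), *Rragc* (1.37), *Naglu*, which encodes a lysosomal glycosidase (1.24), the conjugation enzyme *Atg10* (1.15) and the V-ATPase subunit *Atp6v1b2* (1.11), and the lipase *Lipa* fell by 1.28. The call of *Lipa* was lost without *Cryaa*-WT library 3 (adjusted p = 0.0839). With library size alone 2 of the 131 rose and 116 fell, and with the crystallins and Gm42418 left out of the library size 6 rose and 44 fell. Under these scalings 82% and 45.8% of all genes tested fell.

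*Sqstm1* is a known target gene of the stress factors ATF4, CHOP and NRF2, and autophagy genes reported to depend on ATF4 or CHOP were set beside genes of the stress response. All 8 ATF4 and CHOP stress genes rose in *Cryaa*-R49C-homo lenses, among them *Atf4* (1.75, SE 0.21, adjusted p = 6.11e-06) and *Ddit3*, which encodes CHOP (5.17, SE 0.31, adjusted p = 1.99e-10). Of the 12 autophagy genes of the second list *Sqstm1* rose, *Becn1* fell and 10 did not pass the threshold, with a median of 0.05. Of 7 NRF2 target genes *Srxn1* (2.10) and *Txnrd1* (0.80) rose, with a median of 0.61 and 5 of 7 positive. The summed level of the 7 pointed the other way, at 274 to 460 CPM in WT and 185 to 354 CPM in homo lenses. Of all genes tested, 4.87% rose and 4.92% fell. The call of *Txnrd1* was lost without any 1 WT library or without homo library 2 or 3, with adjusted p-values of up to 0.201 in edgeR's test. *Atf4*, *Ddit3*, *Srxn1* and *Txnrd1* were named after their values were seen.

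The genes whose pattern was most like that of *Sqstm1* were *Eda2r* (r = 0.967), *Atf4* (r = 0.957) and *Uaca* (r = 0.956), by Pearson's r of log2 CPM over the 18 libraries after the mean of each line was removed. *Atf4* was at 28.1, 30.0 and 22.6 CPM in *Cryaa*-WT, 26.1, 35.5 and 29.7 CPM in *Cryaa*-R49C-het and 84.9, 95.04 and 92.6 CPM in *Cryaa*-R49C-homo lenses. In the *Cryab* line it lay between 44.1 and 79.9 CPM, and its highest library there was WT library 1, which was also the highest for *Sqstm1*. The nearest genes to *Gabarapl1* were *Etfb* (0.961), *Fis1* (0.951) and *Cox14* (0.950), those to *Becn1* were *Ahsa1* (0.960), *Atp6ap1* (0.957) and *Qpct* (0.956), and those to *Fyco1* were *Rpgrip1* (0.878), *Rundc3a* (0.865) and *Sema4g* (0.855). *Rpgrip1* encodes a protein of the photoreceptor cilium. The points share libraries and scaling, and they are given as a description. Group means were not removed, so r also carries the differences between the genotypes of a line.

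**Figure D5:**
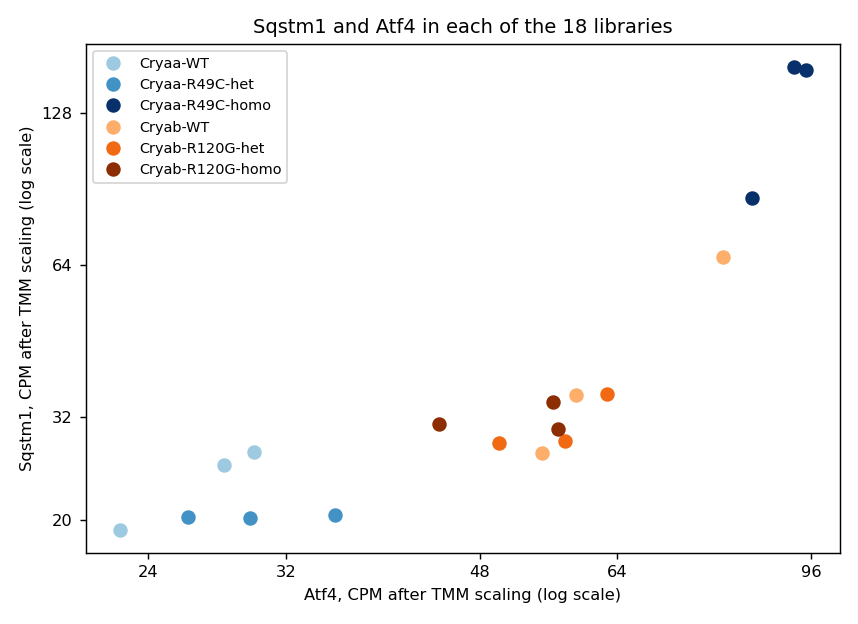
CPM of *Sqstm1* (y axis) against CPM of *Atf4* (x axis), both on log scales, with 1 point for each of the 18 libraries, coloured by group. The 3 *Cryaa*-R49C-homo libraries lie at the upper right, at 84.9 to 95.04 CPM of *Atf4*, and the *Cryab*-WT point nearest to them is library 1, at 79.9 CPM of *Atf4* and 66.4 CPM of *Sqstm1*.

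Markers of other cells moved with the homo group of the *Cryaa* line. Of all genes tested 4.87% rose and 4.92% fell in this comparison. Of 14 macrophage and microglia markers tested 2 rose and 0 fell, and their summed level was 12.7 to 29.7 CPM in WT and 30.4 to 59.8 CPM in homo lenses. Of 8 vessel and mesenchyme markers 2 rose, and their sum was 37.5 to 64.5 CPM in WT and 41.2 to 166 CPM in homo lenses. Of 12 fibre markers tested 5 fell and 0 rose, and the fibre markers summed to 165641 to 250929 CPM in WT and to 79382 to 195503 CPM in homo lenses. Of 10 pigment epithelium and melanocyte markers 2 fell, and their sum was 25.3 to 47.7 CPM in WT and 15.1 to 19.9 CPM in homo lenses. Of 5 lens epithelium markers 1 fell, *Pdpn* was listed at 0, and their sum was 160 to 193 CPM in WT and 135 to 305 CPM in homo lenses. Among these 5 the log2 fold change was positive for 2 and negative for 3, with a median of -0.72. No photoreceptor, inner retina or erythrocyte marker passed the threshold. Homo library 1 stood apart in these sums too. Its vessel sum was 41.2 CPM against 166 and 137 CPM in the other 2 homo libraries, and its macrophage sum 30.4 against 58.9 and 59.8 CPM. Its fibre sum was 195503 CPM against 103601 and 79382 CPM, and its epithelium sum 135 against 305 and 248.9 CPM. Homo library 1 was also apart from libraries 2 and 3 for *Becn1* and *Gabarapl1*, where it lay within the WT range, and for *Map1lc3b* and *Atg5*, where it lay above it. Between the WT lenses all 14 macrophage markers, 6 of 8 vessel, 5 of 10 pigment and 3 of 8 inner retina markers fell, beside 11.5% of all genes, and 9 of 12 fibre and 5 of 8 photoreceptor markers rose, beside 11.7%. The median log2 fold change of the photoreceptor markers was 4.004. Their sum was 819, 22.3 and 84.8 CPM in *Cryab*-WT libraries 1, 2 and 3, and 8.17 to 34.0 CPM in *Cryaa*-WT. The part of these cells and of the share of Gm42418 in the changes above was not tested.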

How the data were processed

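Single 50-base reads of poly-A libraries were aligned by the authors with STAR 2.0.4b to GRCm38 (Ensembl annotation), and uniquely aligned, unambiguous reads were counted per gene with featureCounts 1.4.5. The count values of the table deposited by the authors are whole and not normalized, and 1 line was kept for each of 40800 identifiers (41422 lines). RPKM values deposited by the authors were used only to check the order of levels between genes. Normalized tables made from the same reads were not used.

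TMM scaling and the quasi-likelihood test of edgeR 4.0.16 (R 4.3.3) were applied to the 13938 genes kept by filterByExpr, in 1 model of 6 groups over the 18 libraries, whose TMM factors were 0.49 to 2.26. The study's own filter of at least 1 count, which makes edgeR's prior degrees of freedom infinite here, was an alternative. A gene passed the threshold at a Benjamini-Hochberg adjusted p of at most 0.05 over all genes of a comparison. SE is the log2 fold change over the square root of F. DESeq2 1.42.0 and the other alternatives are in the closing section. The fitting code was tested on simulated counts. Exon lengths and positions came from GENCODE vM21 (GRCm38).

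The genes and lists were chosen with earlier results of these data known. All 10 genes were named, with genes of the wider lists past the threshold ranked by absolute log2 fold change, at most 20 for *Cryaa*-R49C-homo against WT and 10 between WT lenses and 5 for other contrasts with WT, and the 3 genes most like 4 of the members. Per the study's methods each of the 3 libraries of a group is a biological replicate made from its own group of combined lenses, so p-values measure the spread between such pools. After group means were removed, same-numbered *Cryab* WT and homo libraries correlated at 0.28, 0.18 and 0.16, all above 0.1, and other comparisons did not reach 0.1 in each pair.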

Additional observations from a re-analysis of the deposited data

Results flagged for a closer look

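Genes whose homo effect differed between the lines by the test of that difference in the model of all 18 libraries are given here as values, and their causes were not tested. *Sqstm1* differed by 2.90 on the log2 scale and stayed past the threshold in all 20 alternatives, between 2.45 and 3.15. Of the wider lists, *Atg9a* differed by -1.57 (adjusted p = 0.0271), *Galns* by -1.28 (adjusted p = 0.0333), *Vps16* by -1.09 (adjusted p = 0.0451) and *Wipi1* by 1.03 (adjusted p = 0.0497) in edgeR's test. With each of the 12 libraries of this comparison left out in turn, the call of *Atg9a* held 6 times, that of *Galns* 3 times, that of *Vps16* 4 times and that of *Wipi1* 2 times, with adjusted p-values of up to 0.151. In *Cryab* lenses *Atg9a* was at 6.09 ± 2.08 CPM in WT and at 6.15 ± 1.57 CPM in homo (SD, n = 3).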

How the results depend on the processing

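The limits are 3 libraries a group, 1 *Cryaa*-R49C-homo library that stood apart, and a scaling that has to bridge large shares of crystallin and Gm42418 reads. Counts for *Cryaa*-R49C-homo against WT are 2 of the 10 genes and 17 of the 131 list genes. They became 1 gene, with *Becn1* lost, with library size alone (15.3% of all genes called), 1 without crystallins and Gm42418 in the library size (8.3%) and 1 with only the groups compared (3.39%), where 4 list genes were called, and 4 and 38 with the likelihood-ratio test, which added *Map1lc3b* and *Gabarapl1* and called 20.7% of all genes in place of 9.79%. Against het (1 and 18) they were 2 genes with library size alone (7.33% of all genes called). With every gene of at least 1 count they were also 2 (1419 genes called in all). They were 3 with DESeq2 (1448 genes called in all) and 5 and 45 with the likelihood-ratio test (21.9% of all genes in place of 8.32%). With only the groups compared, 2 list genes were called (2.15%). For the difference between the lines (1 and 5), 3 and 21 were called by the likelihood-ratio test (10.4% of all genes in place of 2.91%), and 1 list gene with library size alone (1.84%), 3 with every gene of at least 1 count (798 genes called in all) and 1 with only the groups compared (1.48%). In *Cryab*-R120G-homo the likelihood-ratio test called 1 list gene and 1.84% of all genes. Between the WT lenses (3 and 26, beside 23.2% of all genes), library size alone called 9 and 118 (83.2%). The library size without crystallins and Gm42418 called 5 and 50 (48.9%). The likelihood-ratio test (32.9%) and the fit of only the groups compared (25.3%) each called 2 genes, without *Sqstm1*. Library size alone moved the median of all genes to 0.21 in *Cryaa*-R49C-het, 0.41 in *Cryaa*-R49C-homo, 0.37 in *Cryab*-R120G-homo and -1.61 between the WT lenses. Beside that common shift, signs changed among the log2 differences given in the text. These were *Sqstm1* in *Cryaa*-R49C-het (0.027), *Map1lc3b* (0.073) and *Tfeb* (0.051) in *Cryaa*-R49C-homo, and *Lamp1* (0.056) in *Cryab*-R120G-homo. Between the WT lenses they were *Sqstm1* (-0.68), *Fyco1* (-1.20), *Rragc* (-0.14), *Naglu* (-0.30), *Atg10* (-0.40) and *Atp6v1b2* (-0.46), and *Fyco1* also without crystallins (-0.42). *Map1lc3b* (0.29 in the main fit) and *Lamp1* (0.31) were also among the 9 genes that fell there with library size alone. With 1 library left out at a time, the counts ran from 1 to 4 and 10 to 45 against WT, 1 to 5 and 4 to 59 against het, and 1 to 4 and 1 to 32 for the difference, beside 5.35% to 22.1%, 3.3% to 29.4% and 1.81% to 13% of all genes. The log2 difference of *Fyco1* ran from -0.16 to 0.32 in *Cryaa*-R49C-homo and from -0.0060 to 0.43 between *Cryab* homo and het, and that of *Sqstm1* from -0.67 to 0.028 in *Cryab*-R120G-homo, where that of *Fyco1* ran from -0.043 to 0.53. The cause of these changes was not tested. With the replicate number as a block, 3 of the 10 genes were called in *Cryaa*-R49C-homo against WT, beside 10.3% of all genes tested. *Gabarapl1* was among them, at an adjusted p of 0.0313 in edgeR's test. Against het 3 were called, beside 9.18%. Correlations of same-numbered libraries were not all above 0.1 in either comparison. In *Cryab*-R120G-homo against WT, where they were, the block changed no call among the 10 genes.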
